A study of Mus musculus with 12 samples.

Results

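The 39 genes described here make sterols and fatty acids, take sterols into the cytosol or send them out of the cell. They were matched by name to the gene annotation of the array, from a list drawn up with earlier results of these data known. Msmo1 was found under its older symbol Sc4mol. All 39 were on the array, among 34821 gene names. Of these, 38 passed the filter on dim probes and were tested among 24963 genes, each gene by its brightest probe. Elovl6, a fatty acid elongase, did not pass, with a probe well above background on 1 of 12 arrays and levels between -6.62 and -3.51. The tested genes fall into 8 mevalonate steps, 11 steps between squalene and cholesterol, 5 genes that control SREBP, 1 sterol transfer protein, 6 genes of fatty acid synthesis and desaturation, 5 LXR and export genes, and 2 genes of lysosomal sterol exit.

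The 12 one-colour arrays measured B cells purified from the spleen of Balb/c females, either allergic to house dust mite (HDM) or control. The cells were cultured with a CD40 agonist for 2 days, with LPS present for the last 5 hours, and then sorted by an IL-10 secretion assay. The 4 groups of 3 arrays were IL-10+ cells of HDM mice, IL-10- cells of HDM mice, IL-10+ cells of control mice and IL-10- cells of control mice. No genetic change is named for any group, and the CD40 agonist and LPS were common to all. Nothing in the labels ties the 3 arrays of a group to different animals or dishes, so p-values measure the spread between these samples, which may be technical. RNA was amplified by PCR as cDNA before labelling. These are bulk samples, in which fewer cells of a type and less RNA per cell cannot be told apart.

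Cholesterol synthesis is run by SREBP transcription factors. When sterols are scarce in the endoplasmic reticulum, the escort protein SCAP carries SREBP to the Golgi, where it is cut and freed to enter the nucleus and switch on the synthesis and uptake genes. When sterols are plentiful, INSIG proteins hold SCAP back, and oxidised sterols activate the nuclear receptors LXR, which switch on the exporters ABCA1 and ABCG1 and the ubiquitin ligase MYLIP that degrades lipoprotein receptors. Lymphocytes that prepare to divide are known to raise SREBP-driven synthesis, and in human B cells the mevalonate pathway product geranylgeranyl pyrophosphate has been linked to IL-10 production.

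Levels are log2 processed signals minus the 75th percentile of the same array, so a level of 0 is that percentile, and log2 fold changes are differences of such levels. Il10 checked the sort. It stood at 6.89, 6.97 and 6.42 in IL-10+ cells of HDM mice, against -0.09, -0.05 and -5.43 in IL-10- cells of HDM mice, and at 6.97, 7.57 and 6.92 in IL-10+ cells of control mice, against 1.12, 0.69 and -0.04 in IL-10- cells of control mice. The B cell markers were present in both sorts: 7 of 8, Pax5 among them, were well above background on 12 arrays. The summed level of the 8 (log2 of the summed linear levels) was 6.33 to 6.63 in IL-10+ cells and 6.16 to 6.65 in IL-10- cells. The remaining marker, Cd79a, stood at -5.87 on IL-10- HDM array 3 and at 0.78 to 2.54 on the other arrays. Of 6 plasmablast markers, 5 were tested, with a summed level of 6.34 to 7.62 in IL-10+ cells and 6.25 to 8.26 in IL-10- cells, and Jchain, which joins secreted IgM and IgA, rose by 6.84 (limma adjusted p = 0.0045). The other 4 were not called, with Prdm1 at 0.29, Xbp1 at -0.29, Irf4 at -0.34 and Sdc1 at -1.08, and the median of the 5 was -0.29. All 8 monocyte and macrophage markers were tested, with a summed level of 8.86 to 9.19 in IL-10+ cells and 8.64 to 8.98 in IL-10- cells, and none was called. Itgam, at 0.11, dominated that sum. Mpeg1 lay apart over all 12 arrays, at 5.97 to 6.69 in IL-10+ cells and 2.13 to 5.36 in IL-10- cells, with a log2 fold change of 1.80 (limma adjusted p = 0.13), as did 0.701% of all genes in that direction. Adgre1 was at 2.44 (limma adjusted p = 0.089), and these were the 2 of the 8 at an unadjusted p under 0.05, both higher, where 5.59% of all genes were. Of the 8, 4 were positive and 4 negative, and the probe of Lyz2 was well above background on 2 of 6 IL-10+ and 3 of 6 IL-10- arrays. Of 6 dendritic cell markers, 5 were tested, with a summed level of 5.88 to 6.29 in IL-10+ cells and 5.90 to 6.55 in IL-10- cells. None was called, 4 were positive and 1 negative, and Siglech, at -0.15, dominated that sum. T cell markers summed to 1.73 to 2.70 in IL-10+ cells and 1.5 to 2.97 in IL-10- cells, with 6 of 7 tested. The part of other cells in the results below was not tested.

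Slide 1 held all 6 IL-10+ arrays and IL-10- control arrays 1 and 2, and slide 2 held IL-10- control array 3 and the 3 IL-10- HDM arrays. In HDM mice, therefore, sort and slide cannot be told apart. The IL-10- cells of control mice were the only group on both slides. A slide term in the fit thus rests on their array 3 against their arrays 1 and 2. IL-10- HDM array 3 correlated least with the others (mean r = 0.775 across genes, against 0.867 to 0.901 for the other 11), and 73% of tested genes were well above background on it. IL-10+ control array 2 followed, with a mean r of 0.867 and 78.6% of tested genes well above background. On the genes below, IL-10- HDM array 3 was the highest of 12 arrays in 9 of 19 sterol synthesis genes, and IL-10+ control array 2 was the highest of the 6 IL-10+ arrays in 9 of 19. The share of all genes with these arrays highest was not counted. IL-10- HDM array 3 was highest for Acat2, Hmgcs1, Mvd, Idi1, Fdps, Fdft1, Sqle, Cyp51 and Hsd17b7. All of these but Fdft1 were lower at an unadjusted p under 0.05 in the averaged comparison below. The number of arrays limits the precision of every value.

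The start of the gene is where SREBP acts on this pathway, so 6 promoters are shown. SREBP binds a sterol regulatory element (its core is CACCCCAC) or an E-box (CACGTG), usually beside the CCAAT box of the factor NF-Y. The 6 are the 5 sterol synthesis and SREBP control genes with the smallest p in the averaged comparison of the sorts among those with exactly 1 promoter entry, chosen after their values were seen, and Abca1 for the export side. Insig2, which has several entries in the table, is therefore not shown, although its p was smaller than those of Idi1 and Acat2. Each sequence is the 250 bases before the gene's start in RefSeq, and capitals mark every match of the core, the E-box or the CCAAT box on either strand, none of which overlap each other.
Hmgcs1, GRCm38.p6 chr13:119690101-119690350, plus strand: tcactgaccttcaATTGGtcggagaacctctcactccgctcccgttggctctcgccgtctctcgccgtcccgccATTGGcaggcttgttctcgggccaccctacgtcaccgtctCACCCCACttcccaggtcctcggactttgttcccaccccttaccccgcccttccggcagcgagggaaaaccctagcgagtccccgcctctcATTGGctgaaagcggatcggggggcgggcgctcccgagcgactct
Hsd17b7, GRCm38.p6 chr1:169969206-169969455, minus strand: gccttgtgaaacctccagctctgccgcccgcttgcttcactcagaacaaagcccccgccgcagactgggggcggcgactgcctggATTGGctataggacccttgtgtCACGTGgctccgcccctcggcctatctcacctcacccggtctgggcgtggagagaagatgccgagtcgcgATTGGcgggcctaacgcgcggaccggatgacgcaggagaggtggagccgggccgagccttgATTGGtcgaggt
Insig1, GRCm38.p6 chr5:28071162-28071411, plus strand: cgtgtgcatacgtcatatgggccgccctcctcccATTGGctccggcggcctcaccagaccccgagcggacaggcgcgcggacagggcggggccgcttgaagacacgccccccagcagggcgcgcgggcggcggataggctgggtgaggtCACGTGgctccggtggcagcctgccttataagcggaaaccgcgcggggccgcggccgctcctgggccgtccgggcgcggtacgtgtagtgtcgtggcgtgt
Idi1, GRCm38.p6 chr13:8885356-8885605, plus strand: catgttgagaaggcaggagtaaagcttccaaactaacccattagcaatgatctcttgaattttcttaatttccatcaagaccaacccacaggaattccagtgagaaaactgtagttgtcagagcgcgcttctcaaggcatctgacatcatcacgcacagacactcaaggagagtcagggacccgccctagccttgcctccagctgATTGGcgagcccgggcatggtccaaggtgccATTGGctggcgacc
Acat2, GRCm38.p6 chr17:12960726-12960975, minus strand: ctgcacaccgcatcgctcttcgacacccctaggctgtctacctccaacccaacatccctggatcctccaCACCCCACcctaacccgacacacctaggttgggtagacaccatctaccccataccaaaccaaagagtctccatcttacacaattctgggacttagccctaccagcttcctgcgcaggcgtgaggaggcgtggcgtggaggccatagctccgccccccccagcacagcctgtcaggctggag
Abca1, GRCm38.p6 chr4:53159896-53160145, minus strand: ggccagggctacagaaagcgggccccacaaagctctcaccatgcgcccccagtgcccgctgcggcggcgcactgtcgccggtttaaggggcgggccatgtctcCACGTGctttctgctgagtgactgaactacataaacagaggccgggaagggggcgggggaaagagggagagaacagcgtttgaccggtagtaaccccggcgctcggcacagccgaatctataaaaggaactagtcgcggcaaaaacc

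Promoters were found for 30 of 39 genes, not for Fdps, Fdft1, Sqle, Stard4, Scd1, Scd2, Fads1, Abcg1 or Npc1, and they were searched over 250 bases before to 50 after the start. A gene was counted when any of its promoter entries held the match. The CCAAT box was present for 22 of these 30 genes, and for 41.1% of the 27025 mouse genes with a promoter entry. By role, 15 of 16 sterol synthesis genes held it and 1 of 4 LXR and export genes, Mylip. The core of the sterol regulatory element was found in Hmgcs1 and Acat2 and in 3.3% of all these genes. The E-box was found in 6 of 30, Abca1, Dhcr7, Hsd17b7, Insig1, Sc5d and Scap, and in 8.09% of all. These are matches of letters in a fixed window.

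Set between the sorts and averaged over HDM and control mice, most sterol synthesis genes stood lower in IL-10+ cells, the LXR and export genes ran from -0.12 (Nr1h2) to 1.15 (Abcg1), and no gene passed the test. None of the 38 genes had a limma adjusted p under 0.05, against 0.268% of all genes. At an unadjusted p under 0.05, 11 were lower and 1 was higher, where 3.57% of all genes were lower and 5.59% higher. The sorts overlapped over all 12 arrays in each of the 38, while 0.236% of all genes lay apart as lower and 0.701% as higher. The sterol synthesis genes held 9 of the 11. Their median log2 fold change was -0.73 over 19 genes, 14 of them negative, against a median of 0.04 over all genes tested, of which 47.3% were negative. Over the 16 sterol synthesis genes well above background on every array the median was -0.80, with 13 negative, against -0.06 and 56.4% negative over the 14234 genes of the whole array that met the same condition. The 5 LXR and export genes had a median of 0.16, 3 positive and 2 negative (-0.17, with 3 negative, when array medians were the scale), and none was at an unadjusted p under 0.05. The standard errors of Abca1, Abcg1 and Mylip were 1.09, 0.96 and 1.01. The 9 sterol synthesis genes were 5 without IL-10+ control array 1, where 665 of all 24963 genes were lower at that threshold. With slide as a term of the fit, 4 were lower and 1 higher at an unadjusted p under 0.05, and the median was -0.91. Of all 24963 genes, 556 were lower and 1203 higher in that fit.

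Per array, with each gene set at its mean over the 12 arrays, the median sterol synthesis gene stood at -0.34, -0.38 and -0.27 in IL-10+ cells of HDM mice, against 0.54, 0.36 and 0.38 in IL-10- cells of HDM mice. It stood at -0.51, 0.08 and -0.44 in IL-10+ cells of control mice, against 0.10, 0.65 and 0.01 in IL-10- cells of control mice. The sorts did not overlap in HDM mice, and in control mice they overlapped through IL-10+ control array 2. The median LXR and export gene stood at 0.45, 0.04 and 0.53 in IL-10+ cells of HDM mice, against 0.58, -0.96 and -0.90 in IL-10- cells of HDM mice, and at 0.11, -0.99 and -0.26 in IL-10+ cells of control mice, against -0.05, 0.30 and -0.06 in IL-10- cells of control mice. The sorts overlapped in both kinds of mice. Synthesis minus export was -0.79, -0.42 and -0.80 in IL-10+ cells of HDM mice, against -0.04, 1.32 and 1.28 in IL-10- cells of HDM mice. In control mice it was -0.62, 1.07 and -0.18 in IL-10+ cells, against 0.15, 0.35 and 0.07 in IL-10- cells, with IL-10+ control array 2 above all 3 IL-10- arrays and the others below them. In all, 3 of the 5 export genes were dim: Abca1 and Mylip were well above background on 6 arrays and Abcg1 on 3.

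**Figure D1:**
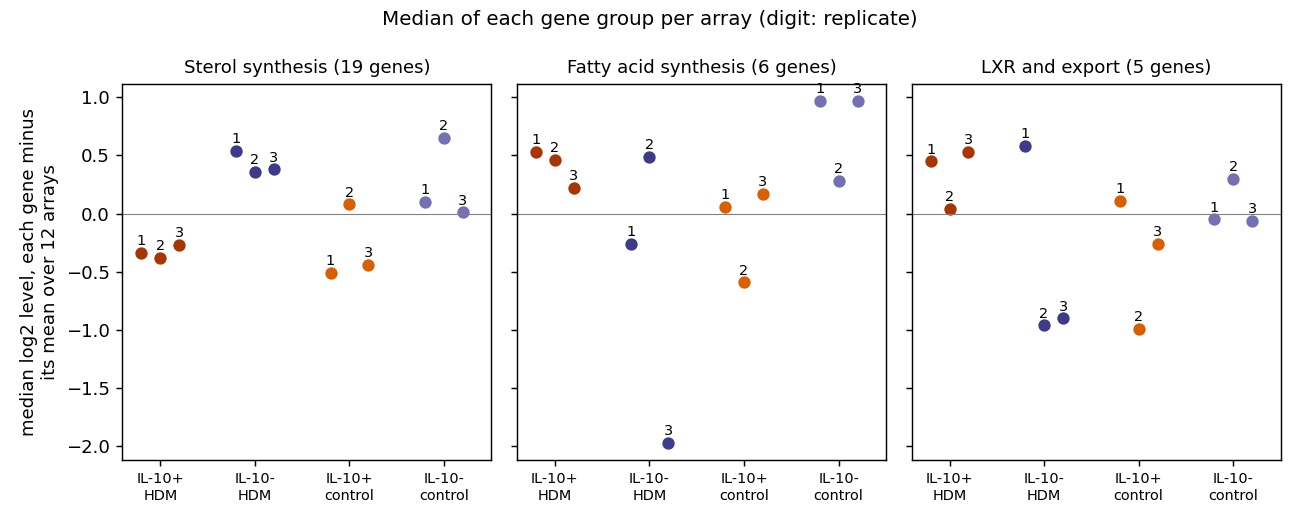
Median log2 level of each gene group on each array, every gene taken relative to its mean over the 12 arrays, for sterol synthesis, fatty acid synthesis, and LXR and export genes. One point is an array and its digit the replicate number, and the sterol synthesis medians of the IL-10+ HDM arrays (-0.38 to -0.27) lie below those of the IL-10- HDM arrays (0.36 to 0.54).

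The mevalonate steps build the isoprenoid unit of sterols. Of these 8 genes, 6 had a negative averaged fold change and 5 an unadjusted p under 0.05. Hmgcs1 makes HMG-CoA, the first committed intermediate, and its probe was placed at mm9 chr13_random:114793-114852. It stood at 3.31, 3.15 and 3.93 in IL-10+ cells of HDM mice, against 4.66, 4.67 and 5.64 in IL-10- cells of HDM mice, and at 3.13, 4.47 and 3.21 in IL-10+ cells of control mice, against 4.37, 4.66 and 4.19 in IL-10- cells of control mice. HDM mice showed no overlap of the sorts, and in control mice IL-10+ array 2 lay among the IL-10- arrays. The log2 fold change was -1.16 (SE 0.32, adjusted p = 0.25) averaged, -1.53 (SE 0.45, adjusted p = 0.25) in HDM mice and -0.80 (SE 0.45, adjusted p = 1) in control mice. Fdps joins isoprenoids into farnesyl pyrophosphate (mm9 chr3:88897549-88897608). It stood at 1.08, 0.27 and 2.45 in IL-10+ cells of HDM mice, against 2.97, 2.03 and 5.16 in IL-10- cells of HDM mice, and at 0.21, 2.52 and 0.42 in IL-10+ cells of control mice, against 2.87, 3.20 and 1.82 in IL-10- cells of control mice. IL-10- HDM array 3 was the highest of all, and the sorts overlapped in both kinds of mice. The averaged value was -1.85 (SE 0.65, adjusted p = 0.41), the lowest of the 38 genes, and -1.41 without IL-10- HDM array 3.

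Mvd, which decarboxylates mevalonate pyrophosphate, stood at 0.27, 0.08 and 0.10 in IL-10+ cells of HDM mice, against 0.34, 0.39 and 2.02 in IL-10- cells of HDM mice, and at -2.18, -1.26 and -0.73 in IL-10+ cells of control mice, against 0.64, -1.30 and 0.44 in IL-10- cells of control mice. No overlap was seen in HDM mice, where IL-10- array 3 lay far above the rest, and they overlapped in control mice. The averaged log2 fold change was -1.04 (SE 0.45, adjusted p = 0.53). In IL-10+ cells, Mvd was the only one of the 38 genes at an unadjusted p under 0.05 between HDM and control mice, at 1.54 (SE 0.63, adjusted p = 1), with all 3 HDM arrays above all 3 control arrays on the same slide. Among the other steps, Idi1, the isomerase of the isoprenoid unit, was at -1.14 (SE 0.41, adjusted p = 0.43) and Acat2, which condenses acetyl-CoA, at -0.62 (SE 0.23, adjusted p = 0.44), and in both the sorts did not overlap in HDM mice. The kinases Mvk and Pmvk were at 0.38 and -0.50, with standard errors of 0.34 and 0.38. Ggps1, the geranylgeranyl pyrophosphate synthase, was at 0.06 (SE 0.30) on its brightest probe, while its other probes gave 1.76 (SE 0.81) and 2.10 (SE 0.60).

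From squalene on, 8 of 11 genes had a negative averaged fold change and 4 an unadjusted p under 0.05. Sqle, the squalene epoxidase and a rate-controlling enzyme of the pathway (mm9 chr15:59162688-59162747), stood at -0.07, 0.34 and 0.44 in IL-10+ cells of HDM mice, against 2.38, 1.48 and 3.58 in IL-10- cells of HDM mice, and at 0.48, 0.95 and 0.51 in IL-10+ cells of control mice, against 1.09, 1.87 and 0.78 in IL-10- cells of control mice. Every IL-10- array of HDM mice was at least 1 log2 unit above every IL-10+ array, whereas in control mice the sorts overlapped. The log2 fold change was -1.42 (SE 0.36, adjusted p = 0.2) averaged, -2.25 (SE 0.52, adjusted p = 0.15) in HDM mice and -0.60 (SE 0.52, adjusted p = 1) in control mice. The difference between the HDM and control values was -1.64 (SE 0.73, adjusted p = 0.76). Without IL-10- HDM array 3 the HDM value was -1.69.

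Hsd17b7, a ketoreductase of the demethylation steps (mm9 chr1:171880203-171880262), stood at 0.29, -0.38 and 0.40 in IL-10+ cells of HDM mice, against 1.74, 1.45 and 1.99 in IL-10- cells of HDM mice, and at 1.22, 1.09 and 0.16 in IL-10+ cells of control mice, against 1.66, 0.48 and 1.12 in IL-10- cells of control mice. On this probe, the brightest of 3, the sorts were apart in HDM mice and overlapped in control mice. It was at -0.94 (SE 0.30, adjusted p = 0.34) averaged, -1.62 (SE 0.43, adjusted p = 0.21) in HDM mice and -0.26 (SE 0.43, adjusted p = 1) in control mice, with a difference between them of -1.36 (SE 0.60, adjusted p = 0.76). Its other probes gave 0.95 (SE 1.42) and 1.28 (SE 0.96) in HDM mice, and -2.92 (SE 1.42) and -0.03 (SE 0.96) in control mice, so the probes differed in sign in HDM mice. Over all roles, 14 of the genes had 18 other probes that passed the filter, and 11 of the 18 had the sign of the brightest probe in the averaged comparison. In HDM mice 11 of the 18 had that sign, and in control mice 9 of the 18. Msmo1, the methylsterol oxidase, stood at -1.10, 0.11 and -0.12 in IL-10+ cells of HDM mice, against 0.92, -1.25 and -0.62 in IL-10- cells of HDM mice, and at -1.72, 1.58 and -1.02 in IL-10+ cells of control mice, against 0.61, 2.39 and 0.93 in IL-10- cells of control mice. The sorts overlapped in both kinds of mice, and in control mice IL-10+ array 2 stood more than 2 log2 units above the other IL-10+ arrays. Msmo1 was at -0.88 (SE 0.63, adjusted p = 0.71) averaged, and at -2.68 in control mice without IL-10+ control array 2, against -1.70 (SE 0.89, adjusted p = 1) with it.

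Ebp, a sterol isomerase, ran the other way in HDM mice. It stood at -0.61, -1.63 and -3.93 in IL-10+ cells of HDM mice, against -2.46, -5.48 and -6.15 in IL-10- cells of HDM mice, and at -2.50, -6.24 and -2.43 in IL-10+ cells of control mice, against -0.95, -1.88 and -2.57 in IL-10- cells of control mice. The sorts overlapped in both kinds of mice, and the probe was well above background on 8 of 12 arrays, with 1 of 3 in IL-10- cells of HDM mice. It was at 2.64 (SE 1.29, adjusted p = 0.4) in HDM mice and -1.92 (SE 1.29, adjusted p = 1) in control mice, with a difference of 4.56 (SE 1.82, adjusted p = 0.76). Of the other steps, Cyp51, the lanosterol demethylase, was at -0.91 (SE 0.39, adjusted p = 0.53) and Sc5d, the lathosterol oxidase, at -0.72 (SE 0.30, adjusted p = 0.5), and in both the sorts did not overlap in HDM mice. Fdft1, the squalene synthase, was at -0.73 (SE 0.34, adjusted p = 0.56) on its brightest probe and at 1.34 (SE 1.10) on its other probe. The lanosterol synthase Lss, the sterol dehydrogenase Nsdhl and the sterol reductase Dhcr7 were at -0.38, 0.10 and 0.16, with standard errors of 0.34, 0.42 and 0.59. For Tm7sf2, a sterol reductase, no IL-10+ HDM array had a probe well above background, and 1 of 3 IL-10- HDM arrays did. It stood at -6.22, -5.44 and -4.5 in IL-10+ cells of HDM mice, against -0.7, -4.49 and -5.03 in IL-10- cells of HDM mice. The sorts overlapped, so the bound of 1.53-fold, higher in IL-10- cells (limma adjusted p = 0.54), does not settle a direction. In HDM mice this probe gave -1.98 (SE 1.40) and its other probe 0.42 (SE 1.47).

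**Figure D2:**
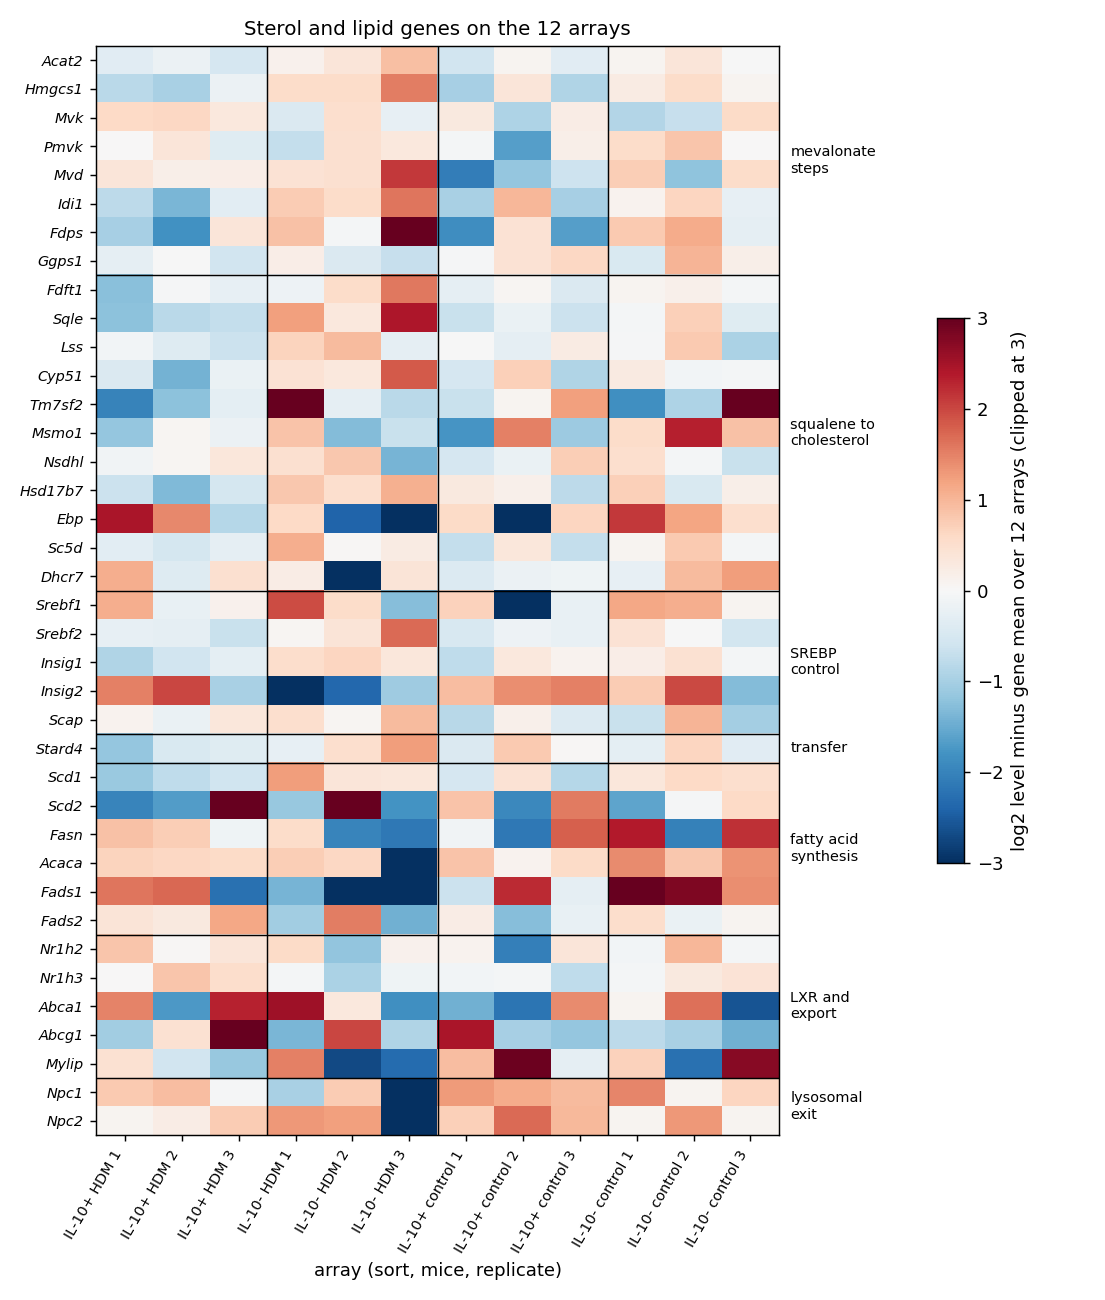
Level of each tested gene on each of the 12 arrays, on the log2 scale relative to the gene's mean over the arrays, with colours clipped at 3. Rows are grouped by role and columns by group, and IL-10- HDM array 3 holds the highest colour in 9 of the 19 sterol synthesis rows.

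Among the genes that control SREBP, 4 of 5 had a negative averaged fold change. Srebf2, which encodes the SREBP of cholesterol synthesis (mm9 chr15:82034765-82034824), stood at 3.29, 3.26 and 2.87 in IL-10+ cells of HDM mice, against 3.60, 3.91 and 5.24 in IL-10- cells of HDM mice, and at 3.06, 3.37 and 3.31 in IL-10+ cells of control mice, against 3.96, 3.51 and 2.98 in IL-10- cells of control mice. Again the sorts were apart in HDM mice and overlapped in control mice. On this probe, the brighter of its 2, Srebf2 was at -0.67 (SE 0.32, adjusted p = 0.57) averaged. In HDM mice it was at -1.11 (SE 0.45, adjusted p = 0.34), or -0.61 without IL-10- HDM array 3, the highest of the 12. Its other probe, also well above background on 12 arrays, gave -0.25 (SE 0.26) averaged and -0.40 (SE 0.37) in HDM mice. Srebf1, which encodes the SREBP of fatty acid synthesis and is itself an LXR target, stood at 0.03, -1.28 and -0.93 in IL-10+ cells of HDM mice, against 0.89, -0.52 and -2.35 in IL-10- cells of HDM mice, and at -0.38, -6.06 and -1.29 in IL-10+ cells of control mice, against 0.10, 0.02 and -0.97 in IL-10- cells of control mice. IL-10+ control array 2 lay far below the rest and was the array on which its probe was not well above background. Srebf1 was at -1.18 (SE 0.93, adjusted p = 0.74) averaged, and at -0.31 without IL-10+ control array 2.

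The INSIG genes stood on opposite sides of 0. Insig1, an SREBP target that retains SCAP in the endoplasmic reticulum (mm9 chr5:28404246-28404305), stood at 2.59, 2.93 and 3.20 in IL-10+ cells of HDM mice, against 4.02, 4.14 and 3.84 in IL-10- cells of HDM mice, and at 2.72, 3.81 and 3.59 in IL-10+ cells of control mice, against 3.70, 3.95 and 3.43 in IL-10- cells of control mice. The sorts did not overlap in HDM mice and overlapped in control mice, with a fold change of -0.71 (SE 0.25, adjusted p = 0.42) averaged and -1.09 (SE 0.36, adjusted p = 0.28) in HDM mice. Insig2, its relative that is not induced by SREBP in the same way, stood at 0.09, 0.58 and -2.39 in IL-10+ cells of HDM mice, against -5.82, -3.78 and -2.48 in IL-10- cells of HDM mice, and at -0.48, -0.01 and 0.10 in IL-10+ cells of control mice, against -0.65, 0.56 and -2.71 in IL-10- cells of control mice. The IL-10- HDM arrays were all low, IL-10+ HDM array 3 lay just above the highest of them, and IL-10- control array 3 lay within their range. Insig2 was at 2.13 (SE 0.75, adjusted p = 0.42) averaged and 3.45 (SE 1.07, adjusted p = 0.26) in HDM mice, the only one of the 38 genes higher at an unadjusted p under 0.05 in the averaged comparison. With slide as a term of the fit, set by IL-10- control array 3 against arrays 1 and 2, the averaged value was 0.35 (SE 1.18). Scap, the escort, was at -0.28 (SE 0.38, adjusted p = 0.85). Stard4, which carries sterols between membranes and is an SREBP target, stood at -1.38, -0.67 and -0.58 in IL-10+ cells of HDM mice, against -0.47, 0.29 and 1.04 in IL-10- cells of HDM mice, and at -0.66, 0.57 and -0.18 in IL-10+ cells of control mice, against -0.51, 0.43 and -0.57 in IL-10- cells of control mice. All IL-10- HDM arrays were above all IL-10+ HDM arrays, with a value of -1.16 (SE 0.50, adjusted p = 0.36), and the averaged value was -0.52 (SE 0.35, adjusted p = 0.7).

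The fatty acid genes did not share a direction. Averaged over the mice, 5 of 6 were positive and 1 negative, with a median of 0.26 (the sign changed with a single array left out and with the scale). Without IL-10- HDM array 3 the median was -0.23, with 4 of 6 negative, and it was 0.0, with 3 negative, when IL-10+ control array 3 was left out. It was -0.07 with array medians as the scale, again with 3 negative, and -0.05 with quantile normalization. The negative one, Scd1, which puts the first double bond into saturated fatty acids and responds to both SREBP and LXR (mm9 chr19:44469387-44469446), had the smallest unadjusted p of the 38 genes, 0.0026. It stood at 1.17, 1.54 and 1.69 in IL-10+ cells of HDM mice, against 3.55, 2.66 and 2.64 in IL-10- cells of HDM mice, and at 1.80, 2.72 and 1.43 in IL-10+ cells of control mice, against 2.64, 2.88 and 2.80 in IL-10- cells of control mice. The sorts did not overlap in HDM mice, and in control mice IL-10+ array 2 lay among the IL-10- arrays. Scd1 was at -1.13 (SE 0.29, adjusted p = 0.2) averaged, -1.48 (SE 0.40, adjusted p = 0.22) in HDM mice and -0.79 (SE 0.40, adjusted p = 1) in control mice. Fads1, the front-end desaturase of polyunsaturated fatty acids, stood at 0.16, 0.26 and -3.69 in IL-10+ cells of HDM mice, against -2.85, -5.71 and -5.53 in IL-10- cells of HDM mice, and at -2.11, 0.78 and -1.73 in IL-10+ cells of control mice, against 1.68, 1.34 and -0.05 in IL-10- cells of control mice. Every IL-10- HDM array was below every IL-10- control array, and its probe was well above background on 1 of the 3 HDM arrays. Fads1 was at 3.61 (SE 1.23, adjusted p = 0.3) between the sorts in HDM mice and -2.01 (SE 1.23, adjusted p = 1) in control mice, with a difference of 5.62 (SE 1.73, adjusted p = 0.74).

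Acaca, which makes malonyl-CoA, had levels of 2.91 to 4.23 on 11 arrays and -5.50 on IL-10- HDM array 3, and its averaged value of 1.13 (SE 1.35, adjusted p = 0.83) was -0.37 without that array. Its other probes gave -0.16 (SE 0.58), -1.04 (SE 0.92) and -0.77 (SE 0.83). Fasn, the fatty acid synthase, was at 0.34 (SE 0.93, adjusted p = 0.93) and Fads2, another front-end desaturase, at 0.19 (SE 0.52, adjusted p = 0.93). Scd2, another stearoyl desaturase, was well above background on 5 arrays and stood at 0.03 (SE 1.24, adjusted p = 0.99).

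The export side was measured less firmly. Nr1h2, the LXR form found in most tissues, stood at 0.78, -0.02 and 0.30 in IL-10+ cells of HDM mice, against 0.52, -1.25 and 0.08 in IL-10- cells of HDM mice, and at 0.05, -2.11 and 0.30 in IL-10+ cells of control mice, against -0.14, 0.94 and -0.11 in IL-10- cells of control mice. The sorts overlapped in both kinds of mice, with an averaged value of -0.12 (SE 0.49, adjusted p = 0.96). Nr1h3, the LXR form known from liver and macrophages (mm9 chr2:91024345-91024404), stood at -1.77, -0.93 and -1.24 in IL-10+ cells of HDM mice, against -1.82, -2.73 and -1.91 in IL-10- cells of HDM mice, and at -1.86, -1.83 and -2.53 in IL-10+ cells of control mice, against -1.82, -1.47 and -1.36 in IL-10- cells of control mice. The sorts of Nr1h3 lay narrowly apart in both kinds of mice, higher in IL-10+ cells of HDM mice and lower in IL-10+ cells of control mice. Their nearest arrays stood at -1.77 and -1.82 in HDM mice, and at -1.83 and -1.82 in control mice. Over all genes, 11.4% lay apart as higher in HDM mice and 4.7% as lower in control mice. The share of all genes apart in both was not counted. Nr1h3 was at 0.84 (SE 0.38, adjusted p = 0.38) in HDM mice and -0.52 (SE 0.38, adjusted p = 1) in control mice, with a difference of 1.37 (SE 0.54, adjusted p = 0.76) and an averaged value of 0.16 (SE 0.27, adjusted p = 0.88).

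Abca1, the exporter of cholesterol to apolipoprotein A-I (mm9 chr4:53043944-53044003), stood at -2.26, -5.47 and -1.43 in IL-10+ cells of HDM mice, against -1.20, -3.42 and -5.57 in IL-10- cells of HDM mice, and at -5.18, -5.94 and -2.33 in IL-10+ cells of control mice, against -3.65, -2.09 and -6.34 in IL-10- cells of control mice. Each group spanned more than 3 log2 units, and the averaged value was -0.06 (SE 1.09, adjusted p = 0.99). Abcg1, the exporter to mature lipoprotein particles, stood at -6.36, -4.87 and -1.58 in IL-10+ cells of HDM mice, against -6.70, -3.31 and -6.22 in IL-10- cells of HDM mice, and at -2.88, -6.31 and -6.47 in IL-10+ cells of control mice, against -6.10, -6.29 and -6.75 in IL-10- cells of control mice. Its probe was well above background on 1 array of 3 in each group but the IL-10- cells of control mice, where it was so on none, and the averaged value was 1.15 (SE 0.96, adjusted p = 0.76). Mylip, the ligase that degrades lipoprotein receptors, stood at -3.33, -4.36 and -4.93 in IL-10+ cells of HDM mice, against -2.27, -6.50 and -6.09 in IL-10- cells of HDM mice, and at -2.85, -0.84 and -4.05 in IL-10+ cells of control mice, against -3.09, -6.02 and -1.06 in IL-10- cells of control mice. The sorts overlapped in both kinds of mice, with an averaged value of 0.78 (SE 1.01, adjusted p = 0.84).

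Npc1 and Npc2 hand cholesterol from digested lipoproteins across the lysosomal membrane. Npc1 stood at 1.57, 1.71 and 0.75 in IL-10+ cells of HDM mice, against -0.19, 1.54 and -6.15 in IL-10- cells of HDM mice, and at 2.06, 1.90 and 1.73 in IL-10+ cells of control mice, against 2.24, 0.86 and 1.42 in IL-10- cells of control mice. Npc2 stood at 2.39, 2.53 and 3.05 in IL-10+ cells of HDM mice, against 3.61, 3.53 and -6.17 in IL-10- cells of HDM mice, and at 3.01, 4.0 and 3.26 in IL-10+ cells of control mice, against 2.38, 3.60 and 2.39 in IL-10- cells of control mice. Both were far lower on IL-10- HDM array 3 than on any other array, and it was the array on which their probes were not well above background. The averaged value of Npc1 was 1.67 (SE 1.07, adjusted p = 0.67), and 0.53 without that array. That of Npc2 was 1.48 (SE 1.47, adjusted p = 0.8), and -0.14 without it.

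**Figure D3:**
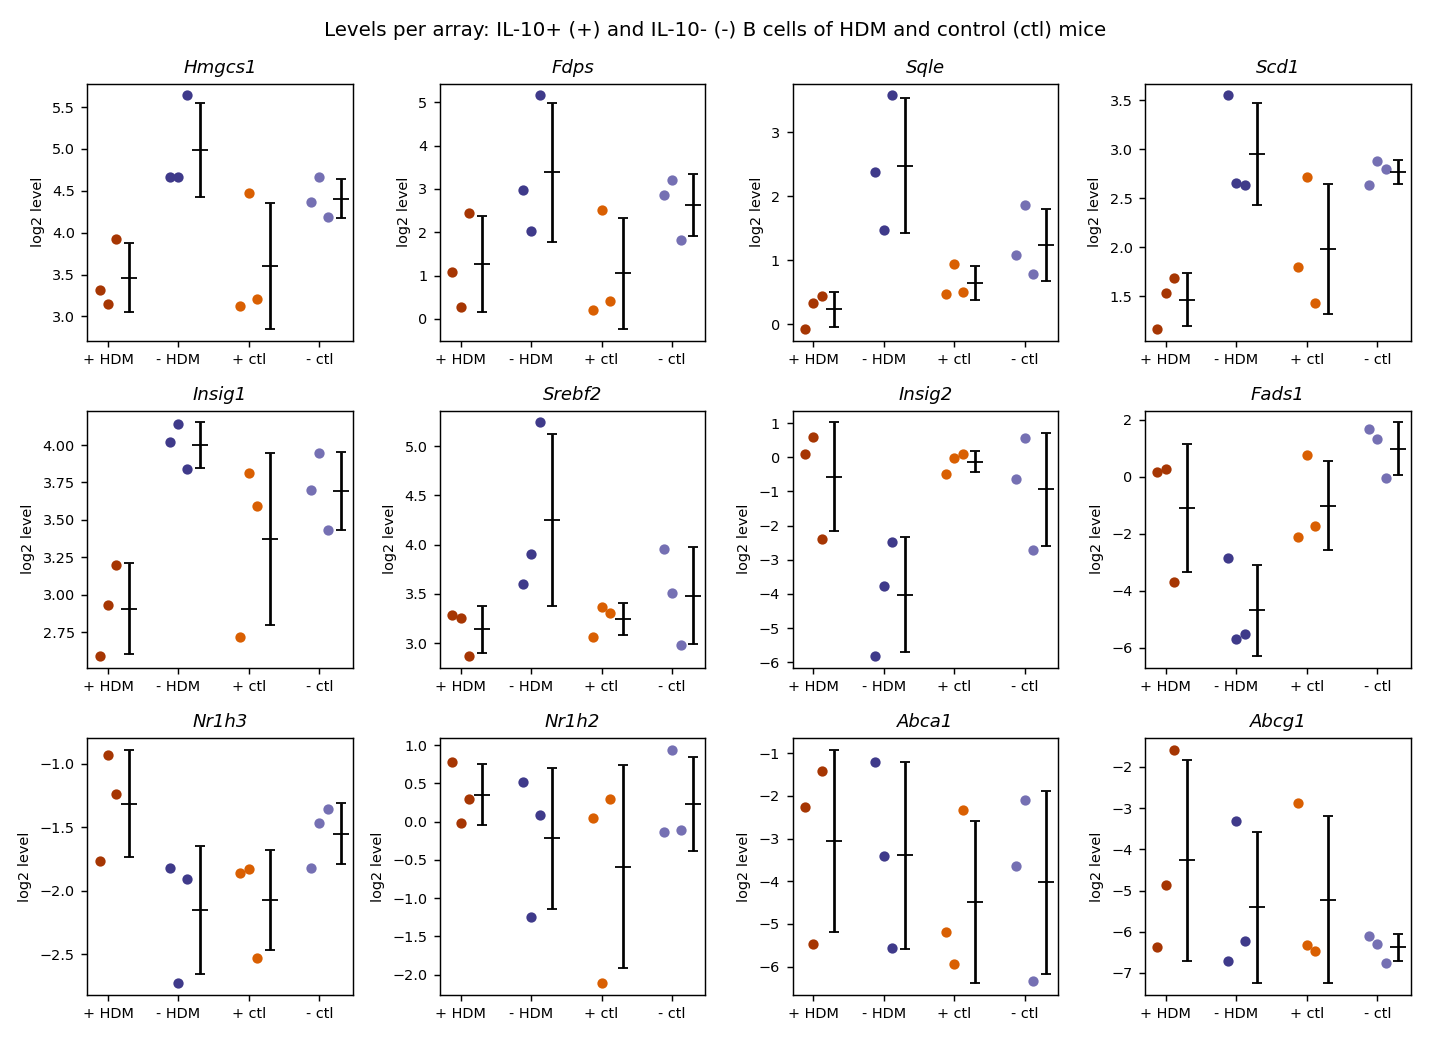
Level of 12 of the genes on each array (points), with the mean and SD of each group of 3 beside them, on the log2 scale relative to the array's 75th percentile. The sorts separate in HDM mice for Hmgcs1, Sqle, Scd1, Insig1, Srebf2, Insig2 and Nr1h3, and overlap in control mice for all of the 12 but Nr1h3.

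In HDM mice alone, most synthesis genes stood below 0 and the export genes above it, the export median by this scale and not with array medians as the scale. None of the 38 genes was called by limma, against 0.168% of all genes. At an unadjusted p under 0.05, 12 were lower and 2 higher in IL-10+ cells, where 5.58% of all genes were lower and 7.72% higher. The sorts did not overlap in 14 genes, 12 lower and 2 higher, where 11.2% of all genes lay apart as lower and 11.4% as higher. The 12 apart as lower were Acat2, Hmgcs1, Mvd, Idi1, Sqle, Cyp51, Hsd17b7, Sc5d, Srebf2, Insig1, Stard4 and Scd1. The 2 apart as higher were Insig2 and Nr1h3. Among these, Mvd, Sc5d and Nr1h3 did not have an unadjusted p under 0.05. Fdps and Fdft1, lower, and Fads1, higher, had one although their sorts overlapped. Mvd was at -0.77 (SE 0.63) in HDM mice, and at -0.21 without IL-10- HDM array 3. Each of the 12 genes apart as lower was well above background on all 12 arrays. Of the 14234 genes that met this condition, 2541 lay apart as lower and 1328 as higher. At an unadjusted p under 0.05, 1204 of these 14234 were lower and 705 higher. The sterol synthesis median was -0.82, 14 of 19 negative, and the LXR and export median 0.74, 5 of 5 positive. Over all genes the median was 0.16, and 43.1% were negative. For the 16 sterol synthesis genes that met the condition the median was -0.82, 13 negative. The 14234 genes had a median of -0.07, with 54.1% negative. Since all IL-10+ HDM arrays lay on slide 1 and all IL-10- HDM arrays on slide 2, no value within a slide can be had. With slide as a term of the fit the medians were -1.04 and 0.58, but that term rests on IL-10- control array 3 against arrays 1 and 2. In that fit 2 sterol synthesis genes were lower and 1 higher at an unadjusted p under 0.05, against 8 and 0 without the term. Of all 24963 genes, 672 were lower and 1347 higher in that fit. Leaving out the first IL-10+ HDM array gave 5 sterol synthesis genes lower, where 854 of all 24963 genes were. Leaving out the third IL-10- HDM array also gave 5 lower. With the mean of a gene's probes, 5 were lower and 1 higher, where 1244 and 2141 of all 24963 genes were. The LXR and export median in HDM mice was 0.36 without the first IL-10+ HDM array and 0.33 without the second IL-10- HDM array, each with 1 of 5 negative, and 0.60 without the third IL-10+ HDM array, with 2 negative. It was 0.37 with quantile normalization and 0.38 with normexp background correction. With the array medians in place of the 75th percentiles the LXR and export median in HDM mice was -0.06, with 3 of 5 negative. Relative to the median of all genes it was 0.58 under both, since a change of scale moves all genes alike.

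In control mice, the sterol synthesis median was -0.49, again with 14 of 19 negative, and the LXR and export median was -0.46, with 3 of 5 negative, against -0.04 over all genes, of which 53.2% were negative. None of the 38 genes was called by limma, against 0.016% of all genes, and none had an unadjusted p under 0.05, where 1.81% of all genes were lower and 2.25% higher. Within slide 1, with 3 IL-10+ and 2 IL-10- arrays, the medians were -0.58, with 16 of 19 negative, and -0.43. Again none of the sterol synthesis genes had an unadjusted p under 0.05, where 665 of all 24963 genes were lower and 994 higher. Nr1h3 was the 1 gene without overlap, lower in IL-10+ cells, where 4.7% of all genes lay apart as lower and 4.75% as higher. Without IL-10+ control array 2, the sterol synthesis median was -0.66. In that fit 5 of the 19 were lower at an unadjusted p under 0.05, where 304 of all 24963 genes were. The LXR and export median was then -0.05. That LXR and export median was -0.11 and -0.29 without IL-10+ control arrays 1 and 3, -0.27 without IL-10- control array 1 and -0.03 with normexp background correction. The comparisons in HDM and in control mice share no array.

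The test of the difference between the sort effects in HDM and in control mice called none of the 38 genes, against 0.012% of all genes. At an unadjusted p under 0.05, Fads1, Ebp and Nr1h3 were more positive in HDM mice, where 4.49% of all genes were, and Sqle and Hsd17b7 more negative, where 1.97% were. Of the 19 sterol synthesis genes, 12 had a negative difference, where 43.9% of all genes did. The lowest adjusted p of the 38 was 0.74, for Fads1.

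**Figure D4:**
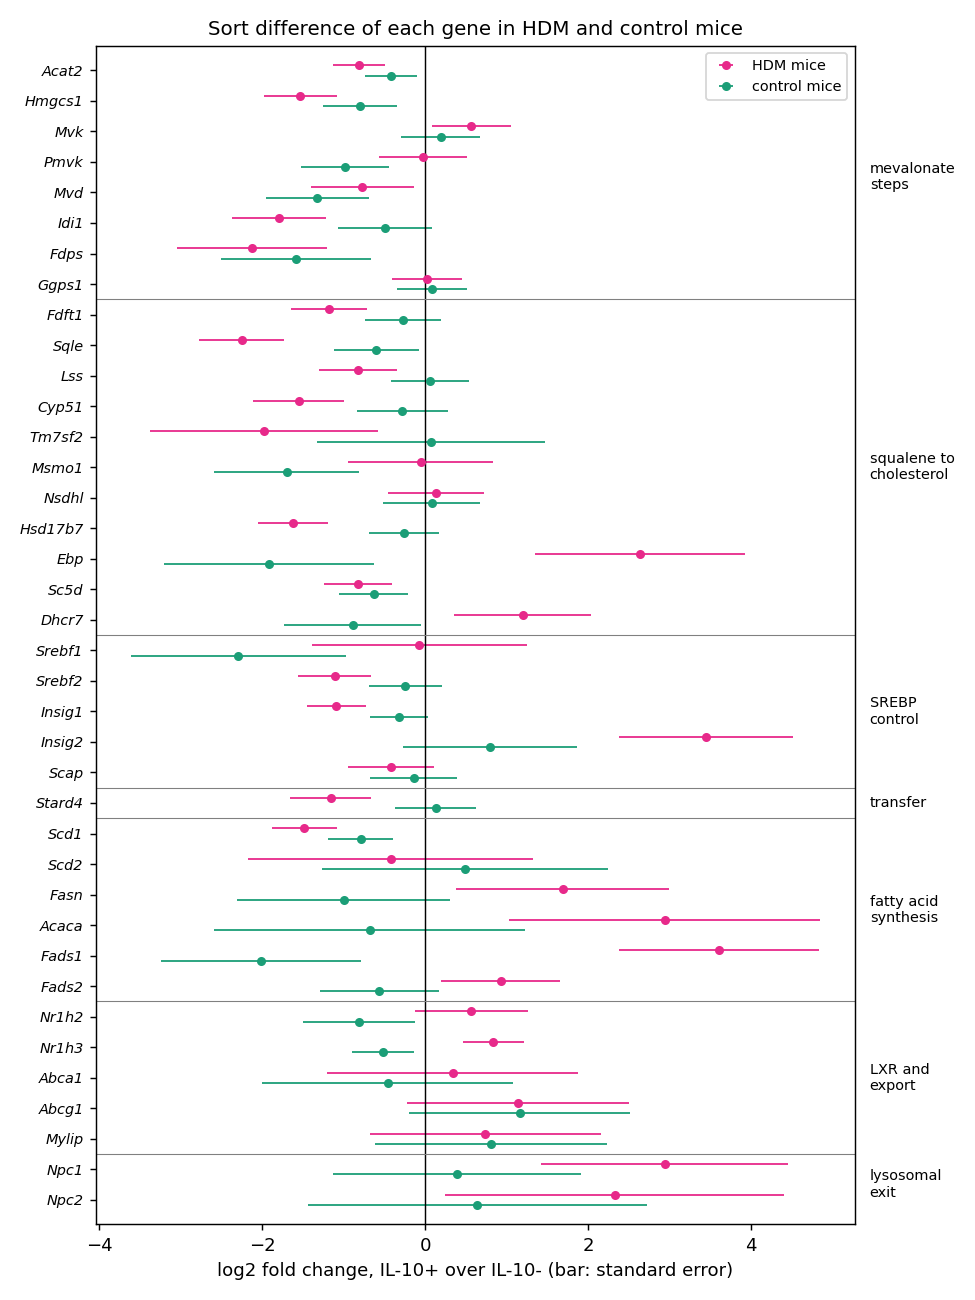
Log2 fold change of IL-10+ over IL-10- cells for each of the 38 tested genes in HDM mice and in control mice, with its standard error as a bar and the genes grouped by role. The LXR and export genes lie right of 0 in HDM mice (0.34 to 1.14; with array medians as the scale their median was -0.06), while 14 of 19 sterol synthesis genes lie left of 0 in each kind of mouse.

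Within IL-10+ cells, all 6 arrays of HDM and control mice lay on slide 1. Between these mice limma called none of the 38, against 0.00401% of all genes. Mvd was higher at an unadjusted p under 0.05, where 1.63% of all genes were higher, and none was lower, where 0.649% were. The sterol synthesis median was -0.07, with 11 of 19 negative, and the LXR and export median 0.94, with 4 of 5 positive, against 0.07 over all genes, of which 43.7% were negative. The LXR and export median was 0.40, 0.53 and 0.62 when IL-10+ control array 2, IL-10+ control array 3 and IL-10+ HDM array 3 were left out in turn, and 0.42 with normexp background correction. The sterol synthesis median was -0.33 to 0.11 with each array left out in turn, above 0 without IL-10+ control array 2. The groups did not overlap for Mvk, Mvd, Fads2 and Nr1h3, which were higher, where 5.86% of all genes were, and for Sqle and Npc1, which were lower, where 3.75% were.

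Within IL-10- cells, limma again called none between HDM and control mice, against 0.0481% of all genes. At an unadjusted p under 0.05, Sqle was higher, where 3.74% of all genes were, and Fads1, Insig2 and Ebp were lower, where 5.39% were. Sqle was at 1.23 (SE 0.52, adjusted p = 0.53) and Fads1 at -5.69 (SE 1.23, adjusted p = 0.21), and for Fads1 the groups did not overlap. The sterol synthesis median was 0.51, with 5 of 19 negative, and the LXR and export median -0.44, with 3 of 5 negative, against -0.04 over all genes, of which 52.1% were negative. Array medians as the scale, also that of the authors' deposited value table, turned the LXR and export median to 0.20, with 1 of 5 negative. The sterol synthesis median was then 1.16, against 0.60 over all genes. Relative to all genes the LXR and export median was -0.40 on either scale, since a change of scale moves all genes alike. Leaving out the third HDM array of the IL-10- cells gave a sterol synthesis median of 0.29, and leaving out their first control array gave 0.33. It was 0.23 with quantile normalization, 0.31 with normexp background correction and 0.18 with the mean of a gene's probes. The LXR and export median was -0.77 to -0.08 with each array left out in turn. The lowest value came from leaving out HDM array 1 of these cells, and leaving out HDM array 2 or control array 2 gave -0.08 or -0.09. Hmgcs1 and Cyp51 lay apart as higher, where 5.72% of all genes did, and Acaca and Fads1 as lower, where 6.16% did. Slide 2 held the 3 HDM arrays and 1 control array, so a value within it rests on that array. On it Fads1 stood at -2.85, -5.71 and -5.53 in HDM mice, against -0.05 in control mice, and Sqle at 2.38, 1.48 and 3.58 in HDM mice, against 0.78 in control mice. Insig2 stood at -5.82, -3.78 and -2.48 in HDM mice, against -2.71 in control mice, where the control array lay inside the HDM range. These comparisons between mice share their arrays with the comparisons between sorts.

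The 35 other genes of sterol and lipid metabolism were listed by pathway, with earlier results of these data known. Of these, 33 were tested and limma called none between the sorts. The median averaged fold change was 0.10, with 18 positive and 15 negative. At an unadjusted p under 0.05, 4 were lower and 5 higher, where 3.57% and 5.59% of all genes were. The 1 gene whose sorts did not overlap over all 12 arrays was Acsl3, an acyl-CoA synthetase of lipid droplets, where 0.236% of all genes lay apart as lower, and it was singled out after its values were seen. Acsl3 stood at -2.63, -3.21 and -2.61 in IL-10+ cells of HDM mice, against -1.12, -1.69 and -1.15 in IL-10- cells of HDM mice, and at -2.52, -2.40 and -2.12 in IL-10+ cells of control mice, against -1.82, -1.48 and -1.30 in IL-10- cells of control mice. Every IL-10+ array lay below every IL-10- array, and the averaged log2 fold change was -1.15 (SE 0.23, limma adjusted p = 0.089). None of the 38 genes was apart over all 12 arrays in this way.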

How the data were processed

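Amplified cDNA of 12 B cell samples was hybridised to one-colour Agilent arrays of design 028005. Per the file headers, the deposited scanner files hold intensity values from Agilent Feature Extraction 10.7.3.1, with probes annotated on mm9, and the processed signal is background-subtracted and detrended within each array. The deposited value table holds a ratio, each processed signal over its array's median (checked against the scanner files, within 0.00077%). Per the file headers, the other columns used, of type other, are flags (control, outlier, saturated, well above background) and names.

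Of 59305 gene spots per array, outlier spots were left out, and so were 87 probes with no other spot on some array. None was saturated. Spots of 1 probe were averaged, log2 values were taken minus the array's 75th percentile, probes well above background on at least 3 of 12 arrays were kept, and each gene was represented by its brightest probe. limma 3.58.1 in R 4.3.3 (lmFit, eBayes, 8 residual and 2.12 prior degrees of freedom) fitted 4 group means over all 24963 genes, with Benjamini-Hochberg adjustment and calls at 0.05, two-sided. The script was tested on simulated data. Averaged means the mean of the HDM and control comparisons. For a probe not well above background on any array of a group, a fold is a bound against, on each array, the higher of its own signal and the lowest signal among probes well above background.

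Values on every array are given for the 2 smallest p per role in the averaged comparison, the 3 smallest in each other comparison, and Srebf1, Srebf2, Insig1, Nr1h2, Nr1h3, Abca1, Abcg1 and Mylip. The genes and lists were chosen with earlier results of these data known. Over 18 pairs of equal replicate numbers, deviations correlated at -0.14 to 0.15, with 2 above 0.1 (-0.19 to 0.13 for unequal numbers), so the numbers were not taken to pair samples. Alternatives covered scaling, background, value table, filter, probe choice, slide, replicate block, arrays fitted, variance prior and each array left out. Sequences are from RefSeq (GRCm38.p6).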

Additional observations from a re-analysis of the deposited data

How the results depend on the processing

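No gene of the 38 was called in any of the 6 comparisons under any of the settings run, 25 to 27 for each comparison with the reported one included. The lowest adjusted p over settings was 0.08 for the averaged comparison, 0.053 in HDM mice, 0.59 in control mice, 0.97 between mice in IL-10+ cells, 0.072 in IL-10- cells and 0.30 for the difference of sort effects. The sterol synthesis median of -0.73 was -1.06 with array medians as the scale and likewise with the authors' deposited value table. That table holds each signal over its array's median, so both are the same scale. On it the median of all genes was -0.29, against 0.04 with the 75th percentile. A change of scale moves all genes of a comparison alike, so the sterol median relative to all genes, -0.77, could not differ. The sterol median itself was -0.56 with quantile normalization, and the cause was not tested. With slide as a fixed block it was -0.91, with 4 genes lower and 1 higher at an unadjusted p under 0.05, against 9 and 0 without the block. Of all 24963 genes, 556 were lower and 1203 higher at that threshold with the block. Each array left out in turn gave -0.90 to -0.61 for the sterol median and 0.01 to 0.54 for the LXR and export median. The LXR and export median was -0.17 with array medians and -0.03 with quantile normalization. With the replicate block, 0 of the 38 genes were called and the sterol median stayed at -0.73. There 7 sterol genes were lower at an unadjusted p under 0.05, where 788 of all 24963 genes were. Among single genes, counting a change of sign where the value had exceeded its standard error, Fdft1 turned to 0.31 with the mean of its probes, and Npc2, at -0.14 to 2.31 with each array left out in turn, turned to -0.14 without IL-10- HDM replicate 3. With that array and the second IL-10+ control array both left out, a setting chosen after seeing the data, Npc2 was at -0.28 and the sterol median at -0.80, with 16 of 19 negative, and the lowest adjusted p of the 38 was 0.092, for Scd1 at -1.40. Dim probes limit Abca1, Abcg1, Mylip, Scd2 and Tm7sf2, each well above background on at most 6 arrays.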
